A study of Mus musculus with 2 samples.

Results

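The 37 genes described here are components of the Hippo pathway and transcriptional targets of its effectors YAP and TAZ, taken by gene symbol from the 37320 gene names on the array. They fall by role into 10 kinases and regulators, 4 cofactors, 4 TEAD factors and 19 targets, with Cyr61 (Ccn1), Ctgf (Ccn2) and Ajuba (Jub) matched under either name. RNA came from UVB-induced tumours of the dorsal skin of male mice, 1 sample labelled WT (P2ry6+/+) and 1 labelled P2ry6-/-, and each was hybridised to 1 single-colour Agilent array. Both groups were 2 months old at the start and received the same ultraviolet B (UVB) course, starting at 180 mJ/cm2 for 10 weeks and climbing in weekly steps of 10 to 300 mJ/cm2, which was reached at week 22 and held to week 40. P2ry6 encodes a G protein-coupled receptor for UDP, and the labels give no detail of how the allele was made and no other allele. The sources used here do not say how many tumours or animals were combined in a sample. The comparison asks how the tumour transcriptome differs when P2ry6 is deleted.

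In the Hippo cascade the kinases MST1 and MST2 (Stk4, Stk3), with the scaffold SAV1, activate the kinases LATS1 and LATS2, which work with MOB1 to phosphorylate YAP and TAZ and keep them out of the nucleus. Unphosphorylated YAP and TAZ enter the nucleus, bind TEAD transcription factors and drive genes of growth, adhesion and matrix. In skin, YAP and TAZ are known for maintaining basal keratinocyte proliferation and for their part in squamous and basal cell tumours. The pathway acts mainly through phosphorylation and location of these proteins, which an RNA array does not measure.

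Since each genotype is 1 array without a biological replicate, differences carry no test and no p-value. Each value below is a scaled signal, the scanner's processed signal put on a common 75th percentile of 337 for both arrays, and a difference is log2 of the array labelled P2ry6-/- minus log2 of the array labelled WT, averaged over the measured probes of a gene. Signals are in arbitrary units and depend on each probe, so levels are compared between arrays for the same probes and not between genes. A probe counted as measured where it was well above background on both arrays. As a scale for differences, probes of the same gene differed from each other with an SD of 0.38 log2 units over the 6730 genes with 2 or more measured probes. This covers measurement and differences between probes, some of which match different transcript records, and not the spread between mice. Replicate spots of the same probe differed with an SD of 0.12 (293 probes). The 0.38 describes single probes, so means of several probes pass it less often (39.3% of all genes against 49.8% with 1 probe). Counts of genes at least 2-fold apart are set beside the same count over all 19872 genes measured on both arrays.

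The targeted gene went against its label. P2ry6 had a scaled signal of 217 on the array labelled WT and 530 on the array labelled P2ry6-/-, a difference of 1.29 ± 0.01 (SD of 2 probes). The probes lie at chr7:108086152-108086211 and chr7:108112251-108112310 (mm9), and the sources used here do not say whether either lies in a deleted part. Every direction below therefore rests on the array labels alone. The arrays were on 1 slide and in 1 scan, with 57.8% and 57.9% of spots well above background on the arrays labelled WT and P2ry6-/-. Markers of other cells moved between the arrays: each of 8 markers of sebaceous glands was lower by 2-fold or more on the array labelled P2ry6-/- (summed scaled signal 40738 against 941), with Fa2h, Awat1, Awat2, Elovl3, Far2, Mc5r, Soat1 and Scd3 as the list. So were 5 of 7 measured suprabasal keratinocyte markers, Krt1, Krt10, Dsg1a, Tgm3 and Casp14 (343112 against 143970). Higher by 2-fold or more were 4 of 7 markers of smooth muscle and pericytes, Acta2, Tagln, Cnn1 and Cspg4 (6140 against 16985), as were 3 of 8 macrophage markers, Cx3cr1, Mertk and C1qb, with Mrc1 lower (2678 against 4810). Of 8 basal keratinocyte markers Krt5 alone was 2-fold higher, 55985 against 177144, within sums of 337657 and 461603. Of 5 skeletal muscle markers Acta1 alone was, 22.8 against 327, within sums of 241 and 577. No fibroblast marker (29374 against 29895) and no endothelial marker (2372 against 3168) of 8 each was 2-fold apart. The part of these cells in the differences below was not tested, and in bulk RNA fewer cells of a type and less RNA per cell cannot be told apart.

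Of the 37 genes, 35 were measured on both arrays through 61 of their 70 probes. Among those 35 genes, 2 were at least 2-fold higher on the array labelled P2ry6-/-, Vgll4 and Tead2, against 4.81% of all measured genes, and 0 were at least 2-fold lower, against 5.04% (9.85% of all measured genes were 2-fold apart in either direction). Their median difference was -0.14, beside -0.06 for all measured genes. Differences were above 0 for 17 and below 0 for 18, where 45.1% of all measured genes were above 0. Ankrd1 was well above background on the array labelled P2ry6-/- alone, and Foxf2 on neither array.

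**Figure D1:**
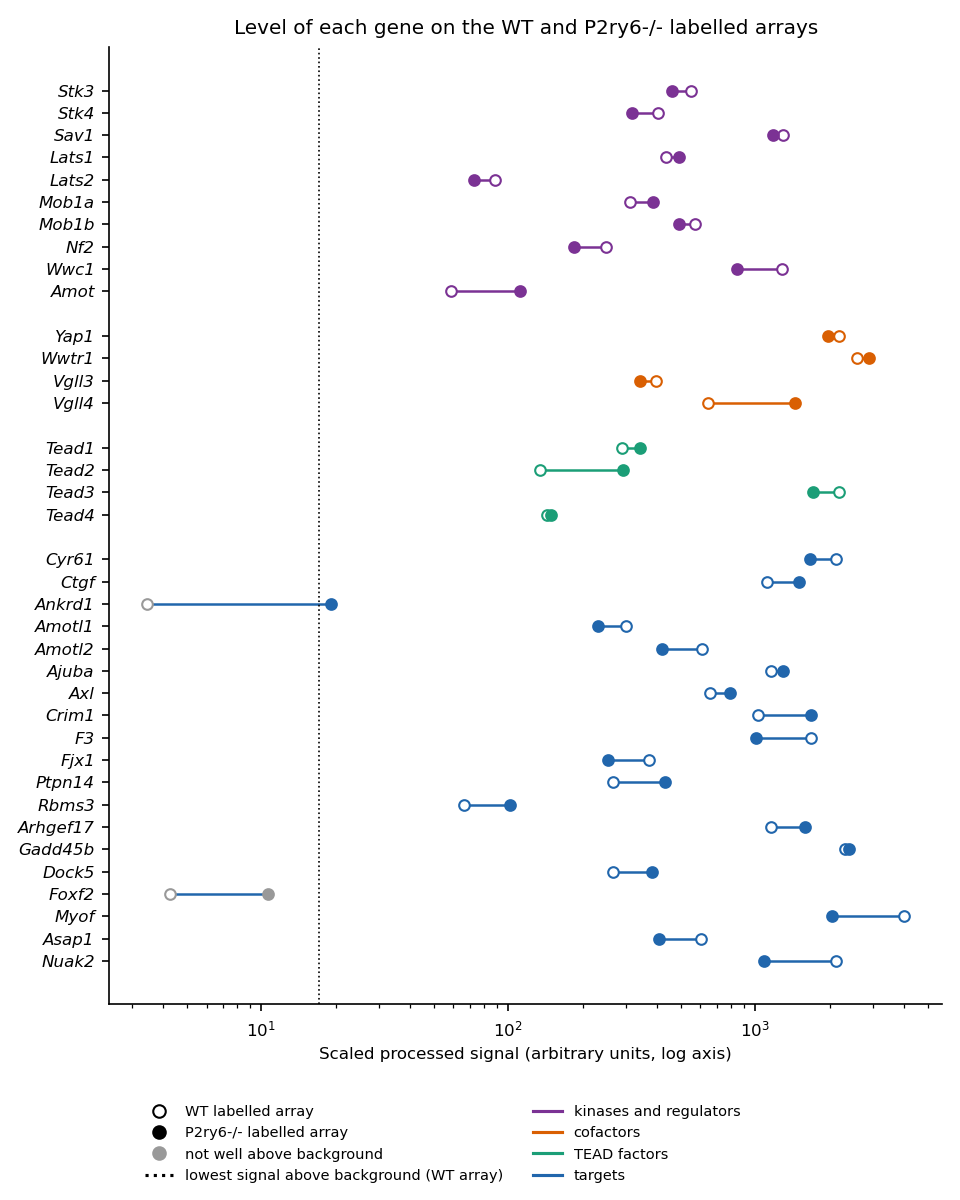
Scaled processed signal (arbitrary units, log axis) of the 37 genes on the array labelled WT (open) and the array labelled P2ry6-/- (filled), 1 array each, coloured by role, with grey for values not well above background and a dotted line at the lowest signal well above background. Vgll4 and Tead2 have the widest gaps towards the array labelled P2ry6-/- among the 35 genes measured on both, and Myof and Nuak2 the widest towards the array labelled WT.

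The core kinase cassette differed little between the arrays. None of its 7 genes passed the between-probe SD of 0.38, which 46.3% of all measured genes passed. That share was 49.8% with 1 probe and 39.3% with 2 or more, and 5 of the 7 had 2 or more. The median difference was -0.22, beside -0.06 for all measured genes, and the values ran from -0.35 to 0.31. Stk4, the MST1 kinase, had 403 on the array labelled WT and 316 on the array labelled P2ry6-/-, a difference of -0.35 ± 0.03 (SD of 2 probes). Stk3, the MST2 kinase, went from 547 to 461, and its 1 probe differed by -0.25. Both MST kinases were thus lower on the array labelled P2ry6-/- by similar amounts, 0.10 log2 units apart. Sav1, their scaffold, had 1295 and 1177, a difference of -0.14. Stk4 came out at 0.01 with no filter on dim probes, where a dim probe entered, and Sav1 at 0.005 with the 75th percentile taken over probes above background.

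The downstream kinases and their coactivators had paralogues of opposite sign. Lats1, a kinase that phosphorylates YAP and TAZ, had 434 on the array labelled WT and 491 on the other, a difference of 0.18 ± 0.07 (SD of 2 probes). Its paralogue Lats2, itself a YAP target, had 88.3 and 72.5, a difference of -0.29 ± 0.21 (SD of 3 probes). Mob1a, a LATS coactivator, had 310 and 386, with a difference of 0.31 ± 0.23 over 3 probes. Mob1b, the other, had 572 and 492, with a difference of -0.22 ± 0.30 over 3 probes. Its brightest probe (1208 to 819) differed by -0.56, past the between-probe SD, and the others by -0.05 and -0.04. The paralogue gaps were 0.46 log2 units for Lats1 over Lats2 and 0.53 for Mob1a over Mob1b, while each gene mean lay inside the between-probe SD. Lats1 and Mob1a turned negative with spike-in controls as the scale, where every difference falls by 0.47.

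The upstream regulators held the 3 differences past the between-probe SD in this group of 10, beside 46.3% of all measured genes. Nf2, encoding merlin, which brings LATS to the membrane, was lower on the array labelled P2ry6-/-, 249 against 185, and its 3 probes differed by -0.50, -0.50 and -0.28 (mean -0.43). The -0.28 came from a bright probe (9240 to 7614), the others from dim ones (44.4 to 31.3 and 37.9 to 26.7). Nf2 fell inside the between-probe SD under normexp background correction (-0.17) and the 75th percentile over probes above background (-0.29). It also did so under a stricter filter and with the brightest probe (-0.28 each). Wwc1, encoding the merlin partner KIBRA, had 1278 and 844, a difference of -0.60, or 1.51-fold. Amot, encoding the junction protein angiomotin that binds YAP, ran the other way with 58.4 and 112, a difference of 0.94, or 1.92-fold. The value for Amot rests on 1 of its 3 probes, at chrX:141881036-141881095, since the others were not well above background on either array. Over all 10 kinases and regulators, 0 were at least 2-fold apart, beside 9.85% of all measured genes. Differences were above 0 for 3 and below 0 for 7, where 45.1% of all measured genes were above 0. The median was -0.23, beside -0.06 for all measured genes. The median of the 10 stayed below 0 in each of 9 other processing settings, from -0.70 to -0.09.

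YAP and TAZ themselves were close to level in their gene means. Yap1 had 2183 on the array labelled WT and 1973 on the array labelled P2ry6-/-, a difference of -0.15 ± 0.34 (SD of 2 probes). Its probes disagreed in sign, -0.39 at chr9:7932025-7932084 (6962 to 5324) and 0.09 at chr9:7997029-7997088 (685 to 731). The brighter probe alone thus lay just past the between-probe SD. Wwtr1, encoding TAZ, had 2590 and 2877, and its 1 probe differed by 0.15. The effectors thus lay 0.30 log2 units apart, less than the spread between probes of a gene. Yap1 turned slightly positive under quantile normalization (0.01), and Wwtr1 turned negative on the spike-in scale (-0.32).

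Among the Vestigial-like cofactors, which bind TEAD factors through a short domain, Vgll4 stood out. Vgll4 competes with YAP for TEAD and is known as a repressor of YAP-driven transcription. Its scaled signal was 644 on the array labelled WT and 1448 on the array labelled P2ry6-/-, 2.25-fold higher. Both probes gave nearly the same step although their brightness differed widely: 4458 to 9758 at chr6:114811566-114811625 (1.13), and 93.0 to 215 at chr6:114871350-114871409 (1.21). The difference of 1.17 lay at the 96.8 percentile of all measured genes. Vgll3, a cofactor that shares TEAD binding, had 396 and 343, a difference of -0.21 ± 0.19 (SD of 2 probes), 1.38 below Vgll4. Vgll4 stayed at least 2-fold higher in 7 of 9 other settings, the exceptions being normexp background correction (0.93) and the spike-in scale (0.70). The settings with no filter and with a stricter filter repeat its reported value, since the same probes enter. Over the 4 cofactors the median difference was 0.00, with 2 above 0 (45.1% of all measured genes were) and 2 below.

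The TEAD factors, the DNA-binding partners of YAP and TAZ, differed among themselves, and Tead2 alone was 2-fold apart. Tead2 had 135 on the array labelled WT and 293 on the array labelled P2ry6-/-, 2.17-fold higher, a difference of 1.12 with a scanner error of 0.21. A second Tead2 probe, at chr7:52487612-52487671, had 15.8 and 33.7 and was not well above background on the array labelled WT, and its difference of 1.09 was not used. The measured Tead2 probe lies at chr7:52488930-52488989. Tead3 ran the other way with 2187 and 1717, a difference of -0.35. Tead4 was level at 143 and 148, a difference of 0.05 ± 0.28 over 2 probes of opposite sign.

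Tead1 had 290 on the array labelled WT and 340 on the array labelled P2ry6-/-, but its 3 probes ranged from -0.31 to 0.62, so its mean of 0.23 ± 0.48 (SD) has no settled sign. Tead2 lay 0.89 above it. The median over the 4 TEAD factors was 0.14, and it turned to -0.33 on the spike-in scale. Differences were above 0 for 3 (45.1% of all measured genes were) and below for 1. Tead2 was at least 2-fold higher in 7 of 9 other settings, with 0.87 under normexp and 0.65 on the spike-in scale. The stricter filter and the brightest probe repeat its reported value by construction, since it has 1 measured probe.

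**Figure D2:**
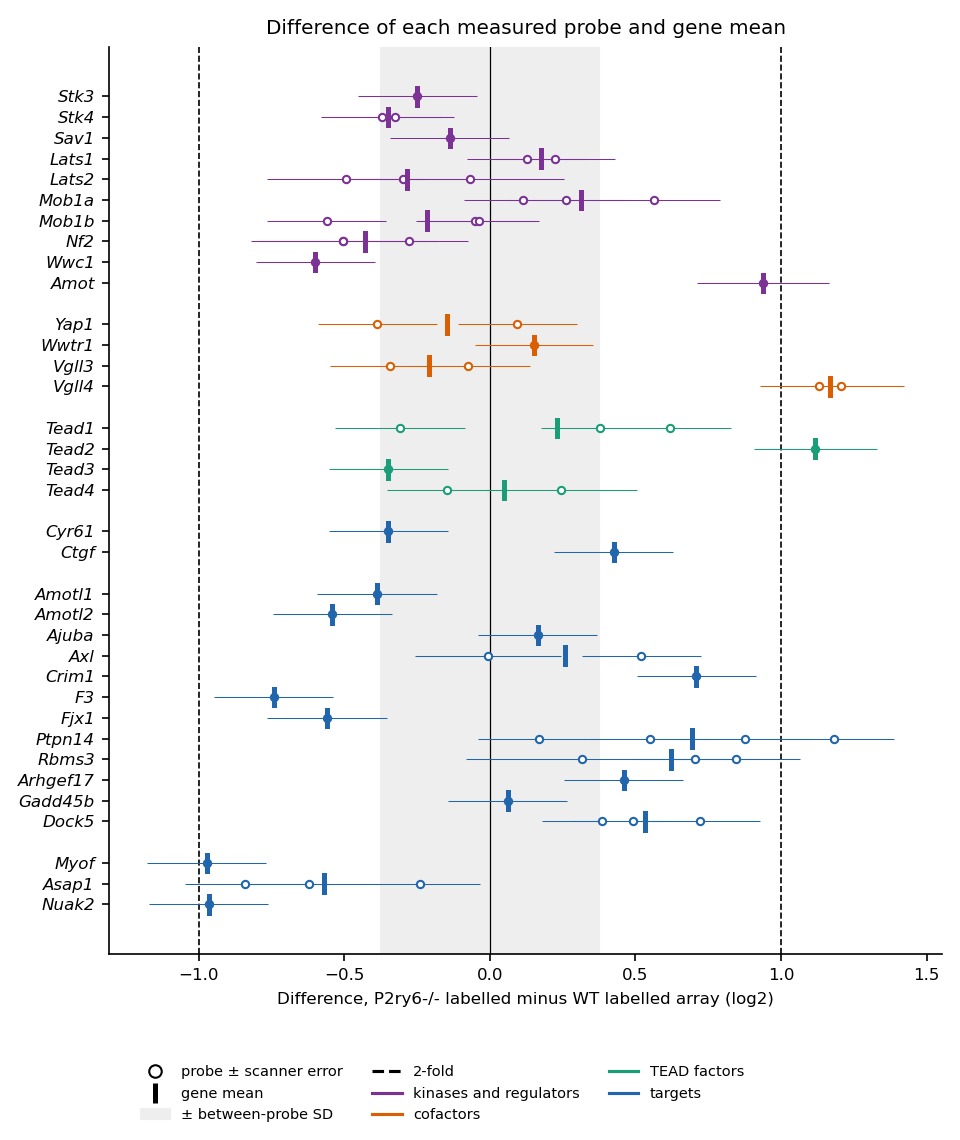
Difference (log2, array labelled P2ry6-/- minus array labelled WT) of each measured probe with the scanner's own error (points and lines) and of the gene mean (bars), with 2-fold dashed and the between-probe SD of 0.38 shaded. The 2 Vgll4 probes lie together past 2-fold, while the probes of Axl, Tead1, Tead4 and Yap1 fall on both sides of 0.

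The YAP/TAZ targets lay on both sides of 0. Of 19 targets 17 were measured on both arrays, and 0 of them were 2-fold apart, beside 9.85% of all measured genes. Differences were above 0 for 9 (45.1% of all measured genes were) and below for 8. The median difference was 0.06, and it fell below 0 on the spike-in scale alone of 9 settings (-0.41). Most targets lay away from 0: 13 of 17 (76.5%) passed the between-probe SD, against 5 of 18 components (27.8%) and 46.3% of all measured genes. Of those targets 6 were higher and 7 lower on the array labelled P2ry6-/-, beside 21.3% and 24.9% of all measured genes. More targets than components were measured by 1 probe, 12 of 17 against 7 of 18, and a single probe varies more than a mean: all genes passed at 49.8% with 1 probe and 39.3% with 2 or more. Among genes with 1 probe 9 of 12 targets and 3 of 7 components passed, and with 2 or more probes 4 of 5 targets and 2 of 11 components did. The median size of a difference, either sign, was 0.54 for targets, 0.27 for components and 0.34 for all measured genes, although the components reached as far, from -0.60 to 1.17 against -0.97 to 0.71. These shares describe this pair of arrays, and the contrast was not tested.

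The best-known pair of targets, the secreted matricellular proteins of the CCN family, lay on different sides of 0. Cyr61 (CCN1) had 2118 on the array labelled WT and 1664 on the array labelled P2ry6-/-, a difference of -0.35 from 1 probe at chr3:145310187-145310246. Ctgf (CCN2) had 1121 and 1504, a difference of 0.42 from 1 probe at chr10:24318281-24318340. Cyr61 was thus lower and Ctgf higher on the array labelled P2ry6-/-, with a gap of 0.77 log2 units between them, but Ctgf alone passed the between-probe SD. The scanner error of each was 0.20. Cyr61 kept its sign in all 9 other settings, and Ctgf in 8, turning to -0.05 on the spike-in scale. As each has 1 probe, no filter, the stricter filter and the brightest probe repeat the reported values by construction. Ankrd1, an ankyrin-repeat nuclear protein that also serves as a standard readout of YAP activity, was dim on both arrays: 3.45, not well above background, on the array labelled WT and 19.1 on the array labelled P2ry6-/-. That bounds it at 1.11-fold higher or more, computed against 17.2, the lowest signal well above background on the array labelled WT. Among the 1012 genes well above background only on the array labelled P2ry6-/-, 22.6% reached a bound of 2-fold or more. These readouts were lower, higher and at the edge of detection in turn.

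Several targets feed back on the pathway, and these also split. Amotl2, an angiomotin family member that binds YAP and activates LATS, was lower on the array labelled P2ry6-/-, with 612 against 421 and a difference of -0.54. Its relative Amotl1 was lower as well, 301 against 230, a difference of -0.39. Ptpn14, a phosphatase that binds YAP and restrains it, was higher in each of its 4 probes, by 0.17, 0.55, 0.88 and 1.18, which gave 266 against 431 and a mean of 0.69 ± 0.44 (SD). Its brightest probe, at chr1:191675787-191675846, carried the greatest step, 883 to 2006, and the probe at chr1:191693879-191693938 the least. Ajuba, a LIM protein that inhibits LATS, had 1161 and 1301, a difference of 0.16. Nuak2, a kinase of the AMPK family, was 1.95-fold lower, 2122 against 1087, a difference of -0.97 from 1 probe at chr1:134229672-134229731. Angiomotin-family genes thus ran in both directions, with Amot higher and both of its relatives lower, under all settings in which each was measured.

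Of the targets that act at the cell surface and membrane, Myof was the most strongly lower on the array labelled P2ry6-/-. Myof encodes myoferlin, a ferlin of membrane repair and receptor recycling, and its probe at chr19:37974040-37974099 gave 4011 on the array labelled WT and 2044 on the other, 1.96-fold lower. A second Myof probe stood at 16.1 and 16.8, not well above background, so the difference of -0.97 rests on 1 probe and was -0.46 with both probes averaged. F3, tissue factor, the cell-surface initiator of coagulation, had 1686 and 1007, a difference of -0.74. Fjx1, the Golgi kinase four-jointed, had 372 and 253, a difference of -0.56. Crim1, a transmembrane protein that binds growth factors of the BMP family, ran the other way with 1027 and 1679, a difference of 0.71, or 1.64-fold. Axl, a receptor tyrosine kinase, had 659 and 787, a mean over a dim and a bright probe. The dim one (52.0 to 51.7) gave -0.01 and the bright one (8352 to 11980) gave 0.52. With the brightest probe alone, Axl was thus higher and past the between-probe SD.

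The targets that act on the cytoskeleton were likewise mixed. Dock5, an exchange factor for the GTPase RAC, was higher on the array labelled P2ry6-/- in all 3 probes, 265 against 383, a difference of 0.53 ± 0.17 (SD). Arhgef17, a guanine nucleotide exchange factor, had 1161 and 1596, a difference of 0.46 that fell to -0.01 on the spike-in scale. Its 1 probe, at chr7:108020666-108020725, lies close to the P2ry6 probes, which start at chr7:108086152 and chr7:108112251. Any part of the targeted locus in the Arhgef17 difference was not tested. Asap1, an activating protein for ARF GTPases, was lower in all 3 probes, 602 against 406, a difference of -0.57 ± 0.30 (SD). So the exchange factors were higher and the ARF regulator lower on the array labelled P2ry6-/-. Rbms3, an RNA-binding protein, had 66.3 and 102, a difference of 0.62 ± 0.27 over 3 probes. Gadd45b, a stress-inducible growth arrest gene, was level at 2302 and 2401, a difference of 0.06. Foxf2, a forkhead factor of mesenchyme, stood at 4.28 and 10.6, not well above background on either array, and is given no fold.

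**Figure D3:**
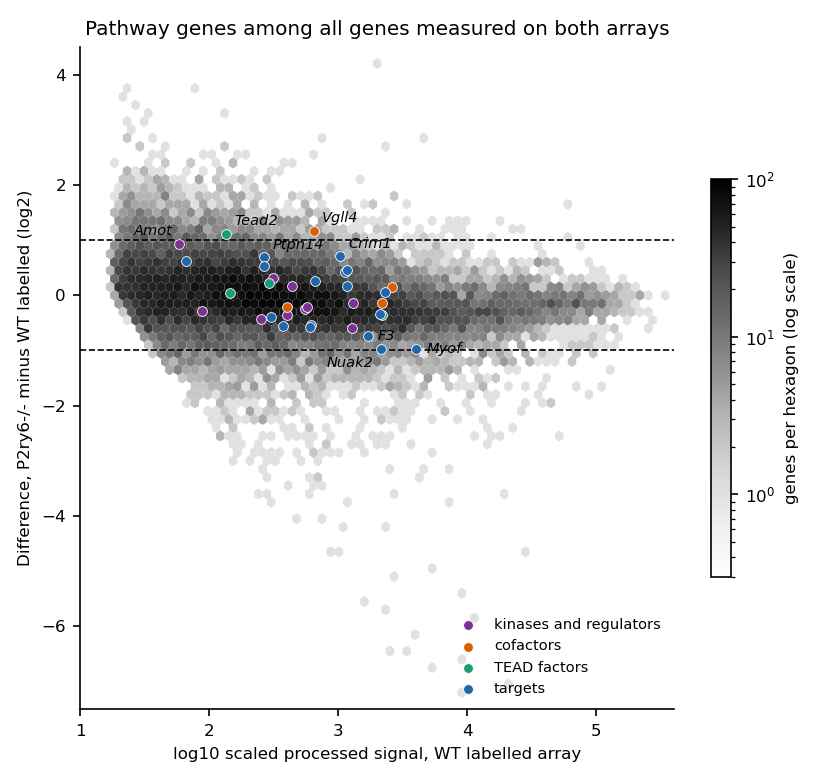
Difference (log2, array labelled P2ry6-/- minus array labelled WT) against log10 scaled signal on the array labelled WT for the 19872 measured genes (grey hexagons, log colour scale) with the 35 pathway genes on top, coloured by role, and 2-fold dashed. Vgll4 and Tead2 sit above the upper line, and Myof and Nuak2 just inside the lower one.

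Against the whole transcriptome the outermost members were not extreme. Vgll4 stood at the 96.8 percentile of differences, Tead2 at 96.4 and Amot at 94.5. At the other end Myof stood at 5.36, Nuak2 at 5.44 and F3 at 9.09. Crim1 and Ptpn14 reached 90.2 and 89.9. The members just inside the 2-fold line were Amot, 1.92-fold higher, and Myof and Nuak2, 1.96-fold and 1.95-fold lower, so small shifts of scale decide their side of it.

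Pathway genes outside the 37 were counted in the same way. Of 46 other Hippo regulators 43 were measured, and 13 of these (30.2%) passed the between-probe SD, against 46.3% of all measured genes, with a median difference of -0.13. Among them 2 were at least 2-fold higher and 1 lower, beside 4.81% and 5.04% of all measured genes. Rassf4 (21.9 against 50.1, a difference of 1.19 from 1 of its 2 probes) was higher on the array labelled P2ry6-/-. So was Stk38l, encoding the LATS-related kinase NDR2 (169 against 341, 1.01 ± 0.25 over 2 probes). Neither was 2-fold higher under normexp (0.50 and 0.63) or on the spike-in scale (0.72 and 0.54). On the spike-in scale the other regulators had 0 higher and 3 lower, beside 315 and 3198 of all 19872 measured genes. Rassf3, a RAS-association domain protein, was 5.21-fold lower, 1466 against 282, from 1 probe. Of 10 other YAP/TAZ targets, all measured, 7 differences were above 0 (45.1% of all measured genes were) and 3 below, with a median of 0.34 that turned to -0.13 on the spike-in scale. Past the between-probe SD were 5 higher and 2 lower, beside 21.3% and 24.9% of all measured genes. At least 2-fold apart were 1 higher and 1 lower, beside 4.81% and 5.04%. Areg, the EGF receptor ligand amphiregulin, was 3.46-fold lower on the array labelled P2ry6-/-, 4153 against 1200, and Edn1, the peptide endothelin, was 2.20-fold higher, 71.3 against 157. Areg stayed past 2-fold in all 9 other settings, and Edn1 in 7, with 0.67 under normexp and on the spike-in scale. Each has 1 probe, so the settings that change the filter or pick the brightest probe repeat the reported value.

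**Figure D4:**
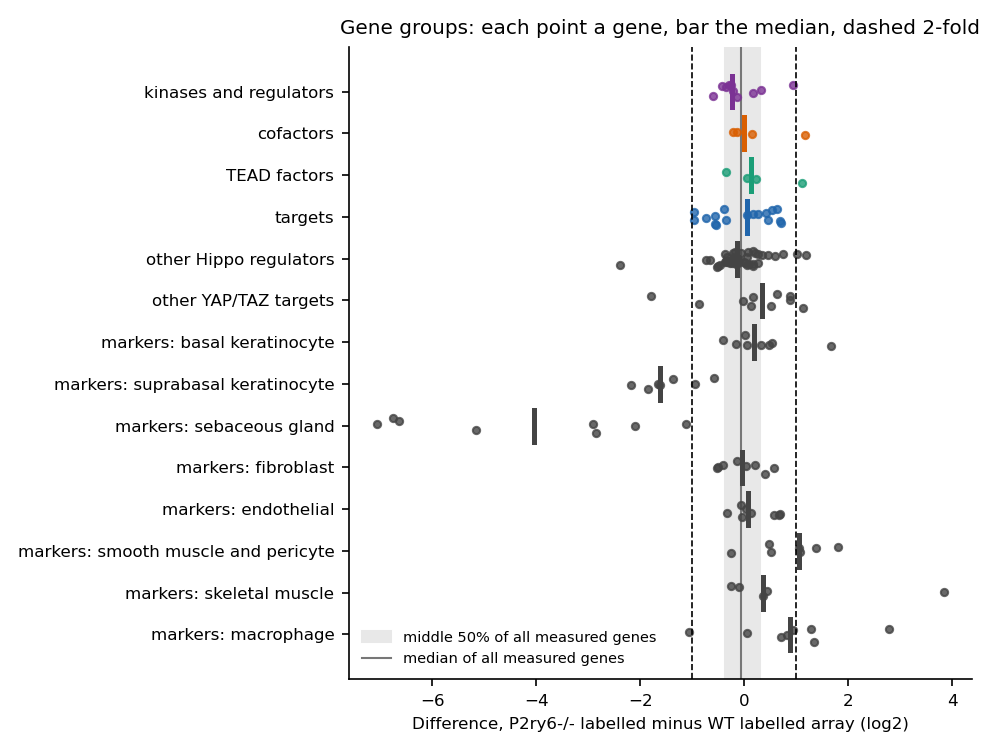
Difference (log2, array labelled P2ry6-/- minus array labelled WT) of each measured gene by group, with bars at the group medians, grey shading over the middle 50% of all measured genes (-0.37 to 0.30) and 2-fold dashed. Kinases and regulators run from -0.60 to 0.94 around a median of -0.23, targets from -0.97 to 0.71 around 0.06, and the sebaceous and suprabasal markers lie far to the left.

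The promoters of the members were searched for the TEAD core motif GGAATG, on either strand, since it is the sequence through which TEAD factors and YAP reach DNA. Windows ran from 250 bases before to 50 bases after each start site in RefSeq (GRCm38.p6), and 28 of the 37 genes had one. No window was matched for Stk3, Tead1, Tead4, Ctgf, Fjx1, Arhgef17, Dock5, Asap1 and Nuak2. The motif was present for 15 of 28 members (53.6%), against 16.6% of 27025 genes with a window. It was in 7 of 13 targets, 4 of 4 cofactors, 3 of 9 kinases and regulators (Lats2, Mob1a and Sav1) and 1 of 2 TEAD factors (Tead3). Components and targets thus held it at like shares, 53.3% and 53.8%. A match is a description of these letters and not a binding site.

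Stretches of 100 bases are printed for targets on both sides of 0 and for Ankrd1, read on the strand of the gene, with the motif or its reverse complement CATTCC in capitals, so that the letters can be read beside the measured differences.
Cyr61, chr3:145650036-145650135 (minus strand): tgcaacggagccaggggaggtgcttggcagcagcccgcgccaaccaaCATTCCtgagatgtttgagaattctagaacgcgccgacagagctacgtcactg
Amotl2, chr9:102717692-102717791 (plus strand): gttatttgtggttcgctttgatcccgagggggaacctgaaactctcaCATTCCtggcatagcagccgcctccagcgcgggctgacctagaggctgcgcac
Ajuba, chr14:54577784-54577883 (minus strand): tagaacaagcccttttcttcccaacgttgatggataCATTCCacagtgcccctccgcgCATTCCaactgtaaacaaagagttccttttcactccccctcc
Crim1, chr17:78200122-78200221 (plus strand): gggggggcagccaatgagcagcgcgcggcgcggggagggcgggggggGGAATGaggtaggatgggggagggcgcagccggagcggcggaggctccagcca
Ptpn14, chr1:189728075-189728174 (plus strand): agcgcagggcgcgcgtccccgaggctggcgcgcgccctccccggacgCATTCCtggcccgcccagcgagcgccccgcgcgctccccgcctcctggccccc
Ankrd1, chr19:36119959-36120058 (minus strand): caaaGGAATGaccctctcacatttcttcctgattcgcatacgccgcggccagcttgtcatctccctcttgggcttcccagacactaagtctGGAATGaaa
The motif began 103 bases before the start site in Cyr61 (difference -0.35), 65 in Amotl2 (-0.54), 79 in Crim1 (0.71) and 146 in Ptpn14 (0.69). Ajuba (0.16) and Ankrd1 held it at 2 places each, 186 and 164 bases before the start in Ajuba and 210 and 123 in Ankrd1. Genes with the motif were thus among the higher and the lower targets alike.

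Vgll4 is shown as the component with the greatest difference and F3 as the 1 member with a match to TGANTCA (N, any base). This is a loose form of TGA(C/G)TCA, the site of AP-1, a factor with which TEAD often shares enhancers.
Vgll4, chr6:114969233-114969332 (minus strand): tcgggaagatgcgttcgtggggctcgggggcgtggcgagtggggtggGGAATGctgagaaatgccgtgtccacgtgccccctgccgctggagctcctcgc
F3, chr3:121723350-121723449 (plus strand): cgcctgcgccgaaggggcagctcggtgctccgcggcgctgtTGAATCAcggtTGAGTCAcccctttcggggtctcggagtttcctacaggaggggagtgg
In Vgll4 the capitals mark the TEAD motif, 82 bases before the start. In F3 they mark 2 TGANTCA matches, TGAATCA and TGAGTCA, 146 and 135 bases before the start. Of these only TGAGTCA has the C or G of the AP-1 site, and the F3 window held no TEAD motif. TGANTCA was present in 1 of 28 members (3.57%), against 8.97% of all genes with a window. Among the 6 measured targets with the TEAD motif 4 differences were above 0 and 2 below, with a median of 0.21 and a range from -0.54 to 0.71. Among the 5 measured targets without it, Amotl1, F3, Gadd45b, Myof and Rbms3, 2 were above 0 and 3 below, with a median of -0.39 and a range from -0.97 to 0.62. The ranges overlap over most of their length.

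**Figure D5:**
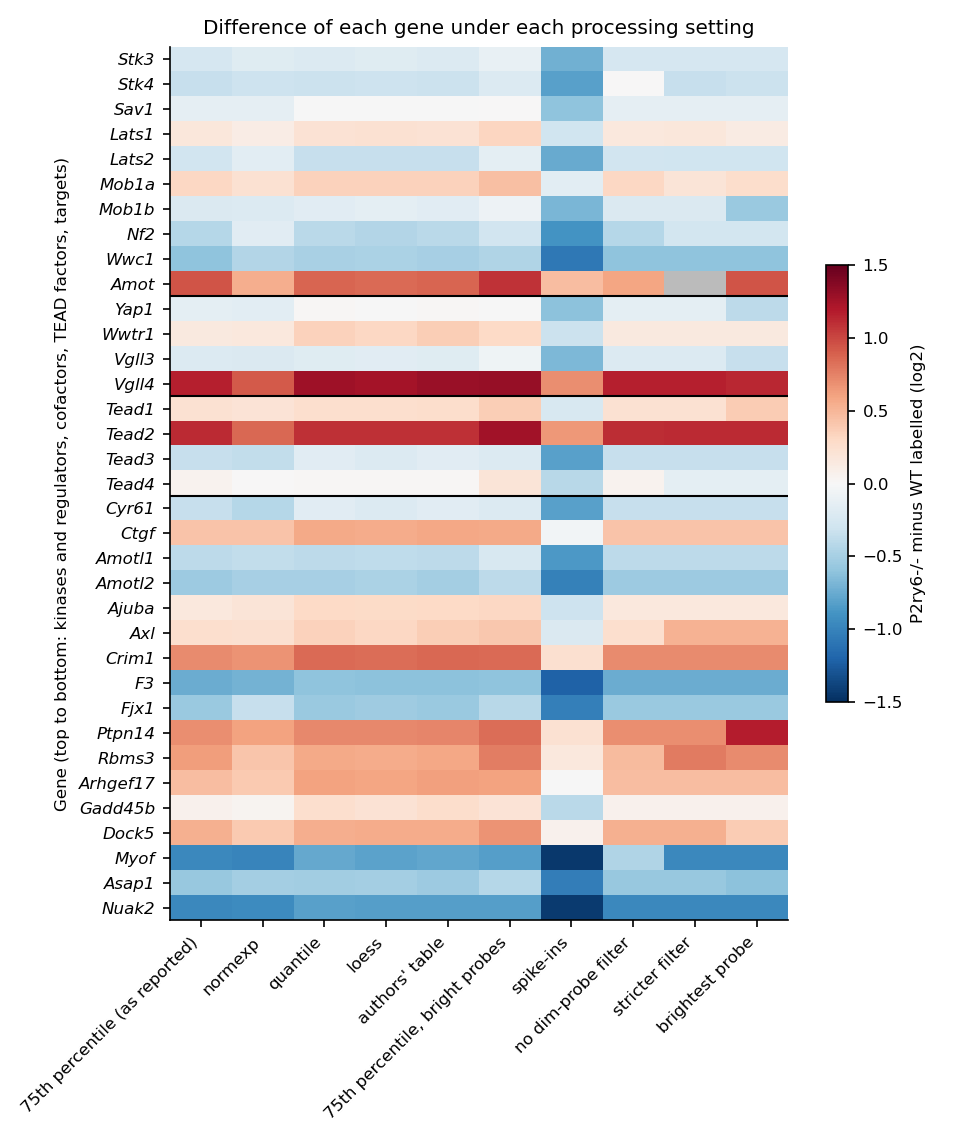
Difference (log2, colour, array labelled P2ry6-/- minus array labelled WT) of the 35 measured members under the reported processing and 9 others, with grey where a gene was not measured. The spike-in column is lower throughout by 0.47, and Vgll4 and Tead2 stay above 0 in every column.

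Across the 9 other processing settings 22 of the 35 measured members kept their sign. These settings are not independent of each other or of the reported one. Filters and probe choice leave many genes unchanged, and the deposited values are quantile-like. The percentile over bright probes and the spike-in scale each shift every difference by a constant. Another 9 turned with the spike-in controls as the scale and nowhere else, and the signs of Stk4, Sav1, Yap1 and Tead4 turned under other settings. Among the members that kept their sign were Vgll4, Tead2, Amot, Crim1, Ptpn14, Rbms3 and Dock5, all higher on the array labelled P2ry6-/-, and Myof, Nuak2, F3, Asap1, Fjx1, Amotl2, Wwc1 and Nf2, all lower.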

How the data were processed

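Total RNA of 2 UVB-induced skin tumour samples, 1 per genotype, was labelled with Cy3 from 0.2 µg by linear amplification, per the labels' protocols. Per the submitters' processing notes the deposited spot intensity values come from Agilent Feature Extraction 10.7.1.1, and per the file headers both arrays lay on 1 slide, in 1 scan, with positions on mm9. The authors also deposited log2 values for the same arrays. These correlate with the scanner files at r = 0.9999 and 0.9997 over 56594 probes, have a median of 4.96 in each column and share 1 distribution, so their scale is log2 and they are quantile-like, as read from the values. How they were made is not stated in those sources.

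Computed here were log2 processed signals minus each array's 75th percentile over non-control probes (347 on the array labelled WT and 327 on the array labelled P2ry6-/-). Control spots and spots flagged as outliers (102 and 105) were left out, replicate spots were averaged, and a gene's value was the mean of the probes well above background on both arrays. Where 1 array alone was above background a bound was given. Probes were named through RefSeq accessions where these matched (32988 probes), and 23606 kept the array's own name. Exon and UTR annotation of mm9 was not used here. The alternatives tried were normexp (offset 50, limma 3.58.1, R 4.3.3), quantile and loess normalization, the deposited log2 values, a 75th percentile over bright probes, 8 spike-in control probes, no filter on dim probes, a filter at 4 times the lowest signal well above background, and the brightest probe of each gene. Steps in Python 3.11.15 were tested on simulated data. With 1 array a group no test between genotypes was possible, and the number of arrays limits the precision. The named genes were all 37 members, P2ry6, and members of the other lists at least 2-fold apart. The members, lists and groups were chosen with earlier results of these data known.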

Additional observations from a re-analysis of the deposited data

How the results depend on the processing

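No leave-one-out was possible with 1 array a group, and a slide block could not be fitted on 1 slide. No paired analysis was possible because each group is 1 array. Of 571 gene values under 9 alternatives, 482 moved by less than the between-probe SD, 89 moved by more and 0 of those at least 2-fold apart changed sign. Spike-in controls lowered every difference by 0.47. The median of all measured genes went from -0.06 to -0.53 under them and to 0.08 with the 75th percentile over bright probes.

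On the spike-in scale the group medians became -0.70 (kinases and regulators), -0.47 (cofactors), -0.33 (TEAD factors), -0.41 (targets), -0.60 (other Hippo regulators) and -0.13 (other YAP/TAZ targets). Genes 2-fold apart on it were 1 of 10 kinases and regulators (Wwc1, -1.07), 0 cofactors, 0 TEAD factors and 6 of 17 targets (all lower). Of all 19872 measured genes 3513 were 2-fold apart on it, 3198 of them lower. On this scale 14 of 18 components passed the between-probe SD, as did 68.7% of all genes. The all-gene median was then taken off, a choice made after seeing the data. After that 4 components and 12 targets passed the between-probe SD, beside 45.3% of all genes. The reported scale gives the same counts by construction, since the spike-in scale lowers every difference by the same 0.47.

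Under normexp 0 cofactors, 0 TEAD factors, 1 other Hippo regulator and 1 other target were 2-fold apart. With the percentile over bright probes 1 kinase or regulator (Amot, 1.08) and 4 other targets were. Without a filter 2 targets (Ankrd1 and Foxf2, both dim) and 4 other targets were, with the brightest probe 1 target (Ptpn14), and under the stricter filter 1 other Hippo regulator, while 3 of 17 components passed the between-probe SD, beside 43.7% of all genes. All genes 2-fold apart, 1958 as reported (956 higher and 1002 lower), numbered 946 under normexp (368 and 578), 3513 on the spike-in scale (315 and 3198), 4378 without a filter (2243 and 2135) and 1260 under the stricter filter (539 and 721), and the percentile over bright probes split them 1337 to 710. The cause of these shifts was not tested beyond the scale itself. Dim probes limit Ankrd1, Foxf2, Amot and Tead2: the Ankrd1 bound ran from 1.04-fold to 1.23-fold, with none on the spike-in scale.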
